A study of Mus musculus with 35 samples.

Results

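The comparison covered liver metastases against primary pancreatic tumors in the libraries labelled Smad4 on. Its members were every library with that label from these organs, 6 liver metastases and 5 primary tumors, 11 of the 35 RNA-seq libraries of the study, with all 53465 genes of the count table. The tumor cells were KC-shSmad4 cells, derived from mouse pancreatic ductal adenocarcinoma (PDAC). They carried a Cre driven by Ptf1a (a gene of pancreatic progenitors), an rtTA3 and red fluorescent mKate2 reporter allele at Rosa26, and a doxycycline (Dox)-inducible hairpin against Smad4, linked to GFP, at Col1a1. The cells trace back to male embryonic stem cells, and the hosts of both groups were athymic nude (Foxn1nu) female mice aged 6 to 8 weeks that were fed Dox chow, and nude mice lack mature T cells. For primary tumors the cells were placed in the tail of the pancreas, and for liver metastases a larger number was injected into the spleen, which was then removed, so that these metastases grew from cells seeded through the portal blood. In the methods of the paper, Smad4 on means that Dox was withdrawn, at week 4 for the pancreas and week 5 for the liver. By the labels, cells positive for mKate2 were sorted on day 7 (2 primary tumors, 3 liver metastases) or day 14 (3 and 3) afterwards. Smad4 levels, given below, went against the label, so withdrawal for these libraries rests on the label alone. The labels name neither the hairpin nor the cell line behind each library, and the organ, the route, the number of cells and the week of withdrawal changed together, so these cannot be told apart.

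Ductal pancreatic cancer cells lie on a range between a classical state, with epithelial junctions, mucins and genes of the foregut epithelium kept on by transcription factors of the FOXA, HNF, GATA and KLF families, and a mesenchymal state, in which ZEB, SNAI and TWIST factors lower cadherin and raise vimentin, fibronectin and collagens. TGF-beta signals through SMAD4 in the nucleus and is a strong inducer of mesenchymal and matrix genes in epithelial cells. The liver adds hepatocytes, which secrete albumin, apolipoproteins and fibrinogen, Kupffer cells, which are its resident macrophages, and sinusoidal endothelium, while the pancreas adds acinar cells full of digestive enzyme mRNA, islets and stellate cells.

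Counts per library were 18491168 to 38182315 in liver and 12200163 to 17292673 in pancreas, so that 3 counts, the floor used here, came to 0.0786 to 0.246 CPM (counts divided by the total count of the library and scaled to 1e+06). Such floors cover counting error only. All levels here are CPM of the total count of a library, and levels were compared between libraries. Where a ratio of 2 genes is given, it is compared across libraries only. Smad4 itself went against the label: the libraries labelled Smad4 on held less of its mRNA than those labelled Smad4 off. Among the 11 libraries labelled on, Smad4 stood at 22.5, 20.5, 19.9, 23.2 and 22.5 CPM in the primary tumors and at 14.4 to 15.7 CPM, median 15.1, in liver, against 92.3 to 110.2 CPM (pancreas) and 84.5 to 132 CPM (liver) in the libraries labelled off. The library labels are therefore used as names throughout, and whether Dox had been withdrawn for the libraries labelled on was not tested. Within the labelled-on libraries Smad4 was also somewhat lower in liver, without overlap (log2 fold change -0.49 ± 0.08 (SE), adjusted p = 0.000785), under the 2-fold limit. The mitochondrial transcript mt-Co3 had counts in 2 of the 6 liver libraries (replicate 3 of each day) and in no primary tumor library. These liver libraries also held Krt18 at 0.462 and 0.479 of Krt8, against 0.759 to 0.846 in the other 4.

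Liver metastases and primary tumors differed broadly, and epithelial genes rose as mesenchymal and matrix genes fell. Of 16092 genes tested, 1792 (11.1%) were called higher in liver and 1971 (12.2%) lower, by a change of more than 2-fold together with an adjusted p under 0.05 (Benjamini-Hochberg) in edgeR's quasi-likelihood test with day as a covariate. For 4663 genes (29% of those tested) the liver and pancreas libraries did not overlap, 1291 of them among the genes called higher and 1509 among those called lower. Libraries of 1 organ resembled each other more than those of the other organ. Across the genes tested, Pearson's r of log2(CPM + 0.5) was 0.949 to 0.994 between liver libraries, 0.974 to 0.992 between primary tumors and 0.853 to 0.94 between the organs. Without the 2 libraries with mt-Co3 counts 1622 genes were called higher and 2023 lower.

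Among the genes higher in liver, the 12 leading ones by p value (after leaving out genes of host cell lists and those that followed the hepatocyte sum described below) were Rnf130, Alpi, Ppp2r2b, Adamtsl4, Slc9a2, Fbxo34, Kcnq1, Zbtb42, Chmp2b, Cmbl, Ccdc85c and Cnnm4. Alpi, intestinal alkaline phosphatase of the brush border, stood far apart. In the primary tumors it was at 0, 0.0578, 0, 0.159 and 0 CPM, and in liver at 7.81 to 102 CPM, median 51.7 (log2 fold change 9.93 ± 0.59 (SE), adjusted p = 1.62e-06). All 3 day 7 livers, at 81.9 to 102 CPM, were above all 3 day 14 livers, at 7.81 to 21.4 CPM. Slc9a2, a sodium-proton exchanger of the gut epithelium, was at 13.4, 10.5, 20.6, 13.6 and 18.5 CPM in the primary tumors and 77.2 to 128 CPM, median 98.1, in liver (log2 fold change 2.78 ± 0.20 (SE), adjusted p = 4.63e-06). Rnf130, a membrane ubiquitin ligase, was at 6.22, 4.86, 6.24, 5.97 and 6.89 CPM against 23.4 to 35.2 CPM, median 30.7 (log2 fold change 2.33 ± 0.13 (SE), adjusted p = 9.29e-07). The potassium channel gene Kcnq1 was at 51.8, 60.7, 102, 77.2 and 84.3 CPM against 142 to 194 CPM, median 176 (log2 fold change 1.30 ± 0.10 (SE), adjusted p = 7.81e-06). For each of these genes the groups were separated. The other 8 had log2 fold changes from 1.02 (Chmp2b, an ESCRT-III subunit) to 3.56 (Ppp2r2b, a regulatory subunit of protein phosphatase 2A). The Chmp2b value lay at the 2-fold limit and was 0.996 without primary tumor replicate 1 of day 14.

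Among the genes lower in liver, the leading ones by the same rule, with the acinar sum in place of the hepatocyte sum, were led by extracellular matrix genes: Col28a1, Fbln1, Cpxm1, Angpt1, Aox1, Timp3, Igfbp3, Prdm1, Reg2, Mmp2, Prss12 and Sema5a. Genes that followed the fibroblast sum were not left out, and the part of host fibroblasts in these values was not tested. Col28a1, a collagen, was at 1201, 839, 458, 587 and 627 CPM in the primary tumors and 32 to 81.1 CPM, median 45.2, in liver (log2 fold change -3.90 ± 0.16 (SE), adjusted p = 8.36e-08). Fbln1, which encodes the matrix protein fibulin-1, was at 110.0, 71.4, 67.1, 119.9 and 112 CPM against 3.55 to 5.07 CPM, median 4.59 (log2 fold change -4.39 ± 0.19 (SE), adjusted p = 1.25e-07). Timp3, an inhibitor of metalloproteinases, was at 2936, 1883, 899.8, 1378 and 1469.6 CPM against 56 to 126 CPM, median 93.3 (log2 fold change -4.24 ± 0.23 (SE), adjusted p = 7.36e-07). The gelatinase gene Mmp2 was at 451, 219.7, 191, 257 and 252 CPM against 10.5 to 21.6 CPM, median 15.4 (log2 fold change -4.15 ± 0.24 (SE), adjusted p = 1.48e-06). Every primary tumor was above every liver metastasis for these genes. Angpt1, the ligand of the endothelial receptor Tie2, was at 12.6, 11.7, 6.03, 12 and 10.7 CPM in the primary tumors and 0.0716 to 0.263 CPM, median 0.193, in liver (log2 fold change -5.84 ± 0.30 (SE), adjusted p = 5.99e-07). Aox1, aldehyde oxidase, was at 39.3, 36.6, 37.3, 34.2 and 37.4 CPM against 7.02 to 10.1 CPM, median 8.06 (log2 fold change -2.11 ± 0.11 (SE), adjusted p = 7.05e-07). Reg2, a secreted protein of the exocrine pancreas, was at 59.2, 29.6, 122, 144 and 92.5 CPM against 0.322 to 1.51 CPM, median 0.945. It was on no marker list and its r with the acinar sum over the 10 primary tumor libraries of both labels was 0.83.

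**Figure D1:**
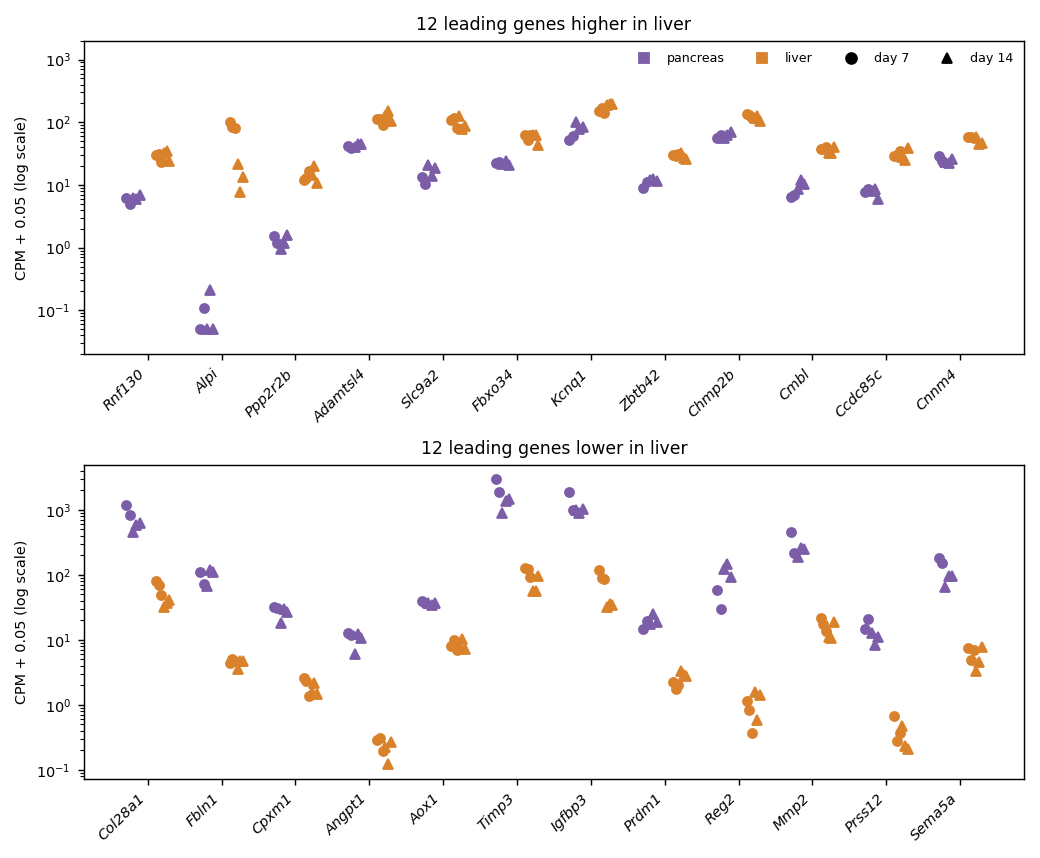
CPM + 0.05 on a log axis for the 12 leading genes in each direction, 1 point per library, purple for the 5 primary tumors and orange for the 6 liver metastases, with circles for day 7 and triangles for day 14. The groups do not overlap for any gene, which the rule for naming them required, and Alpi shows lower liver values on day 14 than on day 7.

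RNA of host organs was measured with 9 lists of cell type markers. The livers held more hepatocyte RNA and the primary tumors far more acinar RNA. The 24 hepatocyte markers summed to 36.3 to 117 CPM in the primary tumors and 157 to 524 CPM in liver (difference of mean log2 sums 2.39, exact two-sided permutation test over libraries, p = 0.00433, higher in 6 of 6 livers). The 19 acinar markers, which encode digestive enzymes, summed to 1123 to 3481 CPM against 8.71 to 19.3 CPM (-7.41, exact permutation p = 0.00216, the smallest that 6 against 5 libraries can give). In bulk RNA, fewer cells of a type and less RNA per cell cannot be told apart.

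Ambp, the precursor of alpha-1-microglobulin and a member of the hepatocyte list, was also present in the primary tumors. It was at 9.7, 31.5, 54.9, 29.6 and 25.8 CPM in the primary tumors and 48 to 306 CPM, median 145, in liver. Albumin, among the most abundant mRNAs of hepatocytes, was low in both organs. Alb was at 0.0669, 0.347, 0.561, 0.796 and 0.082 CPM in the primary tumors and 2.63 to 16.3 CPM, median 10.8, in liver (log2 fold change 4.81 ± 0.69 (SE), adjusted p = 0.000261), with no overlap. The ratio of Ambp to Alb ran from 5.16 to 73.3 across the livers.

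Of the 24 hepatocyte markers 18 had enough counts to be tested, 17 of which were called higher in liver and 0 lower. Of the 24, 7 were at 0 in all primary tumors, and any of these that passed the filter did so through the liver libraries and had to differ, so the count is no support by itself. Fabp1, the liver fatty acid-binding protein, which the gut epithelium also makes, was at 0 in all 5 primary tumors and at 1.22 to 8.62 CPM, median 5.16, in liver, at least 126-fold higher than the floor of 3 counts over the group. Cps1, the first enzyme of the urea cycle, was at 0 in the primary tumors and at 0.358 to 4.51 CPM, median 1.41, in liver (at least 42.4-fold higher), and Apoc3 and Serpina3k were at 0 against 0.107 to 2.22 CPM, median 0.534, and 0.131 to 0.739 CPM, median 0.432. Of the markers not tested, Cyp7a1, the rate-limiting enzyme of bile acid synthesis, was at 0 in all 11 libraries, and Tat, Hpd and G6pc reached at most 0.394 CPM in liver. An r of at least 0.9 between a gene and the hepatocyte sum over the 11 liver libraries of both labels, held for 567 of the genes called higher, among 775 such genes tested, and for 115 of those called higher over the 6 labelled-on livers alone. It was over these 11 libraries that genes were left out of the leading list, and the count moved with the choice.

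Markers of cells that live in the liver sinusoid rose from 0 or near 0, at low levels. Clec4f, found on Kupffer cells, was at 0 in all 5 primary tumors and 0.23 to 1.11 CPM, median 0.439, in liver, and Clec4g, of the sinusoidal endothelium, at 0 against 0.362 to 1.88 CPM, median 0.458, (at least 12.1-fold and 20-fold higher). Stab2, a scavenger receptor of the sinusoid, was at 0.0669, 0, 0, 0.319 and 0.328 CPM in the primary tumors and 0.501 to 3.65 CPM, median 2.19, in liver (log2 fold change 4.05 ± 0.83 (SE), adjusted p = 0.0024). Several general macrophage and endothelial genes went the other way. The CSF1 receptor gene Csf1r was at 13.7, 14.2, 14.4, 17.9 and 25.2 CPM against 2.72 to 12.1 CPM, median 5.87 (log2 fold change -1.32 ± 0.30 (SE), adjusted p = 0.00415), and the endothelial cadherin Cdh5 was at 18.6, 32.4, 21.1, 8.28 and 12.6 CPM against 1.46 to 4.69 CPM, median 3.59 (log2 fold change -2.48 ± 0.27 (SE), adjusted p = 4.11e-05). In all, 4 Kupffer cell and macrophage markers of 11 tested were called higher and 5 lower (sums 46.6 to 178 CPM in liver, 81.8 to 212 CPM in pancreas), and 2 and 2 of 11 endothelial markers (65.5 to 195 CPM and 143 to 297 CPM). The shares called were 81.8% and 36.4%, beside 23.4% of all genes tested. Clec4f and Clec4g, at 0 in all primary tumors, passed the filter through the livers alone and had to differ. The counts of members called higher are therefore no support by themselves. The other members called were Marco, Cd5l and Cd68, all higher, and Adgre1, the 3 C1q genes and Pecam1, all lower. The call of Marco was lost without any 1 of the primary tumors (adjusted p 0.0812 to 0.125), and those of Cd68, C1qa, C1qb and Pecam1 when 1 of 4, 2, 3 and 4 libraries, respectively, was left out, always with the same direction.

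In the primary tumors the pancreas was seen plainly. All 19 of 19 acinar markers tested were called lower in liver (median log2 fold change -11.01). Of these, 1 was at 0 in all livers and had to differ. Pnlip, pancreatic lipase, was at 102, 195, 253, 366 and 277 CPM in the primary tumors, at 0 in 5 livers and at 0.0541 CPM, 1 count, in the other. Cpa1, carboxypeptidase A1, was at 85.7, 111, 197, 250.2 and 191 CPM and at 0 to 0.0541 CPM in liver. The islet hormone genes Ins2 and Gcg were at 6.76, 11.8, 14.5, 3.98 and 7.13 CPM and 9.5, 22.6, 9.19, 19.3 and 18 CPM in the primary tumors and at 0 in all 6 livers, at least 541-fold and 937-fold lower in liver. The 7 islet markers, 4 of which were called lower, summed to 20.3 to 46.8 CPM and 0.251 to 6.77 CPM. Of the 7, 3 were at 0 in all livers and passed the filter through the primary tumors alone. These had to differ, so the count is no support by itself. Of the 1971 genes lower in liver, 19 followed the acinar sum over the 10 primary tumor libraries of both labels with an r of at least 0.9, among 20 such genes tested, and 41 were on a list of host cell markers. As with the hepatocyte and fibroblast sums, genes of the list are part of the sum and were not left out of the count that followed it.

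Fibroblast and stellate cell markers had the largest of the marker sums in the primary tumors. The collagens on this list are also raised in the mesenchymal tumor state described above, and the sources were not told apart. Their sum was 9386 to 25486 CPM in the primary tumors and 366 to 3078 CPM in liver (-4.30 on the log2 scale, exact permutation p = 0.00216), and 10 of 12 tested were called lower (median -3.74). Pdgfra, a receptor of fibroblasts, was at 160.2, 301, 62.1, 115 and 223 CPM against 1.43 to 12.3 CPM, median 3.14 (log2 fold change -5.30 ± 0.61 (SE), adjusted p = 6.42e-05). Dcn, which encodes the matrix proteoglycan decorin, was at 734, 788, 322, 505 and 689 CPM against 14.5 to 69.2 CPM, median 26.1 (log2 fold change -4.32 ± 0.45 (SE), adjusted p = 3.28e-05). Desmin (Des), an intermediate filament protein of stellate cells, was at 0.669 to 2.79 CPM against 0.573 to 1.23 CPM, median 0.953. The stellate cell markers Reln and Lrat were at most at 1.79 and 0.394 CPM in any of the 11 libraries. An r of at least 0.9 with the fibroblast sum over the 10 primary tumor libraries was reached by 22 of the 16092 genes tested, 9 of them lower in liver. Lymphocyte and neutrophil markers summed to 9.5 to 17.4 CPM in the primary tumors and 8.84 to 229.5 CPM in liver. Of 8 tested, 2 were called higher (Retnlg and S100a8, neutrophil genes). Erythroid markers summed to 13.9 to 85.4 CPM and 2.47 to 57.9 CPM, with 1 of 5 called lower (Hbb-bt). The shares called, 25% and 20%, lay near the 23.4% of all genes tested. The highest lymphocyte and neutrophil value, in liver replicate 1 of day 14, was far above the others. Without it S100a8 was no longer called (log2 fold change 1.32), nor without any 1 of 6 other libraries.

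Genes that tumor cells may lack gave a further reading of host RNA. Most lines derived from such tumors lack both copies of Cdkn2a and Cdkn2b on chromosome 4, and Mtap lies next to them (GRCm38, chromosome 4, 89137122 to 89181081). Mtap, a methionine salvage enzyme made by most cells, was near 0 throughout, at 0.401, 0.347, 0.701, 0.956 and 1.23 CPM in the primary tumors and 0.0358 to 0.236 CPM, median 0.0899, in liver (23 counts in all livers and 49 in all primary tumors). Every primary tumor was above every liver (difference of mean log2(CPM + 0.5) -0.94, exact permutation p = 0.00216). Cdkn2b was at 0.134 to 0.82 CPM and 0.0569 to 0.251 CPM, median 0.12, and Cdkn2a at no more than 0.164 CPM. The flanking genes Klhl9, at 20.6 to 27.7 CPM in liver and 22.7 to 25.2 CPM in pancreas, and Dmrta1, at 30 to 76.5 CPM and 36.5 to 63.8 CPM, lay at like levels in both organs. Xist, transcribed from the inactive X chromosome of female cells, is a mark of the female hosts here and was at 22.7, 43.5, 7.16, 15.7 and 31.4 CPM in the primary tumors and 1.57 to 10.3 CPM, median 4.23, in liver (-2.14, exact permutation p = 0.00649). Both readings were higher in the primary tumors, beside the fibroblast and acinar sums, and the share of host RNA in each difference was not tested. In 1 liver library labelled Smad4 off, described as paired-end, the fibroblast sum (31268 CPM) and the acinar sum (483 CPM, against 5.46 to 19.3 CPM in the other 10 livers of both labels) were nearer those of the primary tumors, while Mtap was at 0.105 and Xist at 1.58 CPM. Counts of genes called with the label off, and between the labels, are given with and without it. The fold changes by label, the hepatocyte correlations over the livers of both labels and the list counts between the labels include it.

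**Figure D2:**
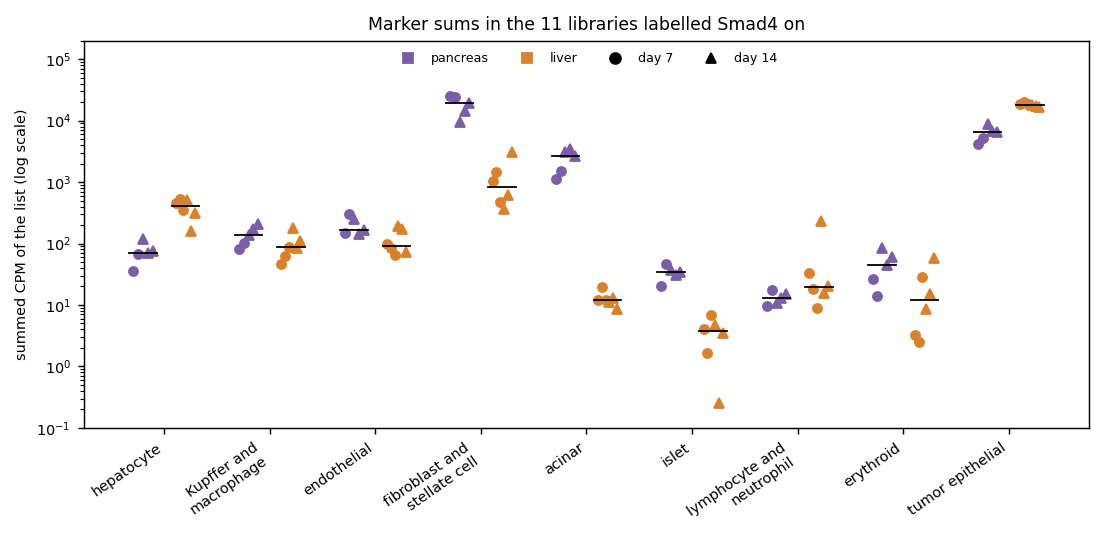
Summed CPM of each marker list on a log axis in the 5 primary tumors (purple) and 6 liver metastases (orange) labelled Smad4 on, with circles for day 7, triangles for day 14 and a bar at the median. Acinar, fibroblast and islet sums are higher in every primary tumor, and hepatocyte and tumor epithelial sums in every liver.

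**Figure D3:**
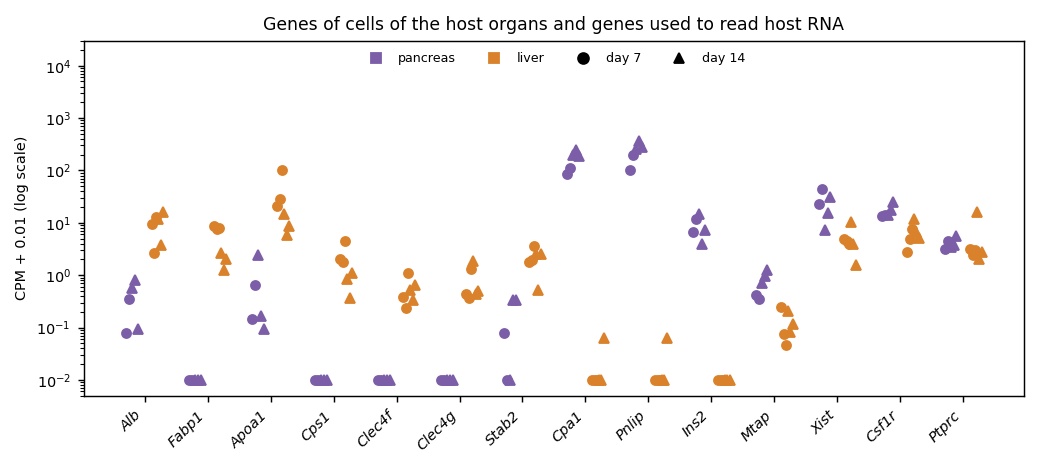
CPM + 0.01 on a log axis of 14 genes of host cells in the same 11 libraries, purple for primary tumors and orange for liver metastases. Points at the bottom (0.01) are libraries with 0 counts, such as all primary tumors for Fabp1, Cps1, Clec4f and Clec4g and all livers for Ins2.

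Epithelial genes were higher in liver. The 12 tumor epithelial markers summed to 4096 to 8863 CPM in the primary tumors and 16448 to 20061 CPM in liver (1.58 on the log2 scale, exact permutation p = 0.00216), and 11 of 12 were called higher, with a median log2 fold change of 1.78 beside 0.02 over all genes tested. Epcam, the epithelial adhesion molecule, was at 157, 119, 139.7, 227 and 192 CPM against 521 to 850.4 CPM, median 811 (log2 fold change 2.25 ± 0.20 (SE), adjusted p = 1.44e-05), and the ductal keratin Krt19 at 682, 1132, 2044, 1211 and 1349 CPM against 3042 to 4074 CPM, median 3439 (log2 fold change 1.55 ± 0.25 (SE), adjusted p = 0.000452). Muc1, a membrane mucin, rose from 164, 97.6, 153, 293 and 253 CPM to levels of 604 to 1389 CPM, median 961 (log2 fold change 2.45 ± 0.31 (SE), adjusted p = 0.00012). Sox9, the ductal transcription factor, was at 148 to 179 CPM against 114 to 202 CPM, median 156 (adjusted p = 0.758). Of the 1792 genes called higher, 1068 exceeded the median of 1.78.

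Tight junction genes split by member. Of 28 tested, 13 were called higher and 3 lower (median 0.93), 57.1% in all beside 23.4% of all genes tested. The claudins Cldn4, Cldn3 and Cldn7, which seal the junction, rose together. Cldn4 went from 35.9, 35.4, 45.9, 56.2 and 49.8 CPM to levels of 169 to 2255 CPM, median 786 (log2 fold change 4.03 ± 0.63 (SE), adjusted p = 0.000461). Cldn3 went from 9.43, 8.56, 19.3, 13.1 and 11.6 CPM to levels of 73.9 to 347 CPM, median 167 (log2 fold change 3.98 ± 0.42 (SE), adjusted p = 3.77e-05). Cldn7 went from 25.1, 12.4, 25.3, 49.3 and 46.4 CPM to levels of 174 to 378 CPM, median 259.5 (log2 fold change 3.19 ± 0.38 (SE), adjusted p = 7.72e-05). The lowest liver was above the highest primary tumor for each. Cldn18, a claudin of stomach epithelium, rose from 0.173 to 0.738 CPM to 3.98 to 11.2 CPM, median 6.71 (log2 fold change 4.01 ± 0.47, adjusted p = 6.29e-05). Cldn1 went the opposite way, from 32.5, 11, 4.49, 17 and 14.2 CPM to levels of 0.823 to 2.97 CPM, median 1.62 (log2 fold change -3.05 ± 0.46 (SE), adjusted p = 0.000337), as did Cldn10 (-2.43) and Jam3 (-1.62).

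Gastric and mucin genes were higher in liver or not called. Of 22 tested, 10 rose and 0 fell (median 2.25), 45.5% in all beside 23.4% of all genes tested. The trefoil factor Tff3, which protects mucosa, rose from 12.3, 5.67, 16.6, 25.8 and 21.6 CPM to levels of 177 to 1278 CPM, median 489 (log2 fold change 5.00 ± 0.62 (SE), adjusted p = 9.75e-05). Pigr, the receptor that carries IgA across epithelia, rose from 393, 140.3, 297, 648 and 422 CPM to levels of 1643 to 5444 CPM, median 3453 (log2 fold change 3.26 ± 0.40 (SE), adjusted p = 9.17e-05). The membrane mucin Muc4 rose from 30.8, 15.1, 21, 48 and 30.7 CPM to levels of 71 to 571 CPM, median 191 (log2 fold change 3.14 ± 0.46 (SE), adjusted p = 0.0003). The spread between livers was wide, with Tff3 ranging from 177 to 1278 CPM. Muc5ac, the gel-forming mucin of the gastric surface, was at 0 to 2.63 CPM against 0.487 to 16.7 CPM, median 5.78 and was not called (adjusted p = 0.402). Col17a1, a transmembrane collagen of epithelial hemidesmosomes, rose from 0.401, 0.173, 0.14, 0.319 and 0.574 CPM to levels of 51 to 736 CPM, median 168 (log2 fold change 9.44 ± 0.84 (SE), adjusted p = 1.51e-05) and was the only collagen of the list called higher. The epithelial integrin Itgb6 rose from 2.41, 1.85, 3.02, 8.36 and 6.15 CPM to levels of 19.3 to 33.7 CPM, median 28.3 (log2 fold change 2.82 ± 0.38 (SE), adjusted p = 0.000168).

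Among 27 lineage transcription factors tested, 7 were called higher in liver, 2 lower and 18 neither (median 0.50). The share called was 33.3%, beside 23.4% of all genes tested. Foxa1, a pioneer factor of endoderm, moved most. It was at 4.15, 2.37, 3.58, 5.65 and 5 CPM in the primary tumors and 22 to 73.7 CPM, median 42.6, in liver (log2 fold change 3.38 ± 0.39 (SE), adjusted p = 6.36e-05), with no overlap. Hnf4g, a nuclear receptor of gut epithelium, rose from 2.88, 1.62, 4.63, 3.03 and 1.64 CPM to levels of 11.5 to 28.6 CPM, median 23.1 (log2 fold change 3.03 ± 0.34 (SE), adjusted p = 5.22e-05). Elf3, an epithelial ETS factor, rose from 192, 160.1, 262, 279 and 253 CPM to levels of 721 to 1335 CPM, median 1269 (log2 fold change 2.32 ± 0.23 (SE), adjusted p = 2.49e-05). Foxa3 (1.49 ± 0.34), Ehf (1.35 ± 0.18) and Klf5 (1.15 ± 0.15) were also called higher. Runx3 and Runx2 were called lower (-1.96 ± 0.37 and -1.30 ± 0.27). On day 14 alone Foxa3 (log2 fold change 0.84, adjusted p = 0.0761), Klf5 (0.88, adjusted p = 0.0085), Runx3 (-1.66, adjusted p = 0.0852) and Runx2 (-0.80, adjusted p = 0.118) were not called.

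Factors of pancreatic and gastric identity were mostly under 2-fold. Hnf4a was at 103, 181, 342, 168 and 181 CPM against 235 to 358 CPM, median 301 (log2 fold change 0.70 ± 0.26 (SE), adjusted p = 0.047), under the 2-fold limit and with overlap, and it passed on day 7 alone (log2 fold change 1.21, adjusted p = 0.0152). Gata6 was at 17.3, 18.9, 17.9, 19.4 and 19.1 CPM against 16.5 to 35.3 CPM, median 23 (log2 fold change 0.44 ± 0.18 (SE), adjusted p = 0.0605). Gata4 (0.43 ± 0.11), Pdx1 (0.64 ± 0.15) and Foxa2 (0.40 ± 0.18) stayed under 2-fold. Klf4, a KLF factor of differentiated epithelium, was at 411, 377, 202, 264 and 276 CPM in the primary tumors and 139 to 385 CPM, median 283, in liver, with the groups overlapping (log2 fold change -0.12 ± 0.22 (SE), adjusted p = 0.685). Runx1 was at 149.9, 152, 108, 119.8 and 119 CPM against 58.5 to 98.6 CPM, median 88.5, lower in every liver yet under 2-fold (log2 fold change -0.60 ± 0.12 (SE), adjusted p = 0.00233). In lung metastases with the same label, not compared here, Klf4 ran from 175 to 347 and Runx1 from 90.9 to 139 CPM.

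Promoter sequences of 3 genes that rose are shown, for Alpi as the leading gene with the largest change, Foxa1 as the lineage factor with the largest change and Cldn4 as the leading claudin. RefSeq windows (GRCm38.p6) hold 250 bases before and 50 after the start of a gene, here in 5′ to 3′ direction of the gene. Capitals mark CAAAGTCCA (the HNF4 motif searched) in Alpi, the reverse complement of TGTTTAC (FOXA) in Foxa1 and TGANTCA (AP-1) in Cldn4.
Alpi chr1:87101557-87101856, minus strand: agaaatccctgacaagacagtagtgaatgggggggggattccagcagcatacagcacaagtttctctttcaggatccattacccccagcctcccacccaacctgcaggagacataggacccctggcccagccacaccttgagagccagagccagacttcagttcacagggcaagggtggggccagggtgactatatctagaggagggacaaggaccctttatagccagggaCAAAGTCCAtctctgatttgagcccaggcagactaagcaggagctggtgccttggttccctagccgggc
Foxa1 chr12:57546062-57546361, minus strand: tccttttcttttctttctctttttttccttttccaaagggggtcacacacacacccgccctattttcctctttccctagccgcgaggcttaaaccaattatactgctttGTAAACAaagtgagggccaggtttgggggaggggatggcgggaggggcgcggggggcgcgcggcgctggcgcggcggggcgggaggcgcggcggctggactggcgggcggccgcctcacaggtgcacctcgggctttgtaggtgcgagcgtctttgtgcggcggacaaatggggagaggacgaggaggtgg
Cldn4 chr5:134946885-134947184, minus strand: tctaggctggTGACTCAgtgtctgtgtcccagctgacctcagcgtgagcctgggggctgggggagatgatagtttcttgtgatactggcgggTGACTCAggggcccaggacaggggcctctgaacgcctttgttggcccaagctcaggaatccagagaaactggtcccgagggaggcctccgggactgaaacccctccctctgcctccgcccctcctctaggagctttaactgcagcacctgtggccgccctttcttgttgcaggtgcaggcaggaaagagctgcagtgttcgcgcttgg
Windows were matched by symbol for 1229 genes called higher and 1333 called lower. On either strand, CAAAGTCCA was in the windows of 1.14% of genes called higher, 0.6% of those called lower and 0.475% of all 32851 windows, against 0.571% of all genes tested. TGTTTAC was in 4.72%, 3.3% and 3.65%, TGANTCA in 10.3%, 8.55% and 7.81%, and the KLF letters GGGNGTGG in 27.3%, 27.2% and 17.6%. Among all genes tested the shares of these 3 motifs were 3.25%, 7.08% and 26.3%, so that the KLF letters were about as common in called genes as in all genes tested. Matches of different motifs shared a base in 2 of all windows and in none of the 3 shown. A gene with several windows counted once where any held the letters, and these shares carry no test.

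Mesenchymal and matrix genes were lower in liver. All 19 of 19 mesenchymal genes tested were called lower, with a median log2 fold change of -2.51, and so were 19 of 24 collagens (median -2.98). Sparc, a matrix glycoprotein, was at 4805, 3809.6, 2068, 3286 and 3438 CPM in the primary tumors and 83.1 to 581 CPM, median 225, in liver (log2 fold change -3.67 ± 0.47 (SE), adjusted p = 0.000129). The other largest mesenchymal falls were those of the matrix genes Postn (-3.39 ± 0.89) and Tgfbi (-3.34 ± 0.44) and the transcription factor Prrx1 (-3.31 ± 0.59). Zeb1, a repressor of epithelial cadherin, was at 163, 129, 75, 99.4 and 96.6 CPM against 12.2 to 30.1 CPM, median 25.9 (log2 fold change -2.19 ± 0.24 (SE), adjusted p = 5.04e-05). Vim, which encodes vimentin, was at 3586, 4392, 3954, 3412 and 3509 CPM against 485 to 2797 CPM, median 1109 (log2 fold change -1.58 ± 0.32 (SE), adjusted p = 0.00206). Fibronectin (Fn1) fell from 5416 to 9701 CPM to 320.5 to 1706 CPM, median 787 (log2 fold change -3.14 ± 0.37 (SE), adjusted p = 6.49e-05). Among collagens Col8a1 (-4.23 ± 0.40) and Col3a1 (-4.17 ± 0.64) fell most, with Col11a1 (-3.96 ± 0.98) and Col5a1 (-3.94 ± 0.62). Fibroblasts of the host also make most of these genes, and the fibroblast sum, Mtap and Xist given above were all higher in the primary tumors. Their part in these differences was not tested.

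Integrins and TGF-beta genes were mixed. Of 18 integrins, 1 rose and 7 fell (median -0.28), 44.4% in all beside 23.4% of all genes tested. The collagen receptor Itga11 went from 60.3, 22.2, 19.2, 29 and 22.5 CPM to levels of 0.716 to 6.05 CPM, median 4.08 (log2 fold change -3.20 ± 0.45 (SE), adjusted p = 0.000216). Itgb3, of the vitronectin receptor, went from 45.6, 39.6, 26.6, 34.5 and 32.5 CPM to levels of 1.54 to 7.12 CPM, median 5.09 (log2 fold change -2.88 ± 0.33 (SE), adjusted p = 5.65e-05), with Itga9 (-1.96) and Itgb8 (-1.78) next. Among 24 TGF-beta feedback and target genes tested 1 rose and 11 fell (median -1.03), 50% in all beside 23.4% of all genes tested. By role, the ligand Tgfb2 fell from 135, 117, 50.6, 73.3 and 88.4 CPM to levels of 6.44 to 12.8 CPM, median 10 (log2 fold change -3.24 ± 0.23 (SE), adjusted p = 4.84e-06), and Tgfb3 (-2.42) and Tgfb1 (-1.19) fell too. Of the receptors, Tgfbr3 fell from 90.6, 99.3, 37, 57.5 and 81.9 CPM to levels of 5.17 to 8.77 CPM, median 7.21 (log2 fold change -3.32 ± 0.23 (SE), adjusted p = 3.49e-06) and Tgfbr2 by less (-1.47 ± 0.17), while Tgfbr1 was not called (-0.35). Among targets, hyaluronan synthase Has2 fell from 23.9, 22.3, 12.8, 19 and 19.8 CPM to levels of 0.358 to 2.83 CPM, median 1.62 (log2 fold change -3.60 ± 0.43 (SE), adjusted p = 7.31e-05), and the feedback inhibitor Smad7 stayed under 2-fold (-0.62 ± 0.10). Id1, a target of BMP signals, was the member that rose, from 34.7, 39.7, 49.3, 58.3 and 56.1 CPM to levels of 64 to 162 CPM, median 130.4 (log2 fold change 1.44 ± 0.25 (SE), adjusted p = 0.000834).

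**Figure D4:**
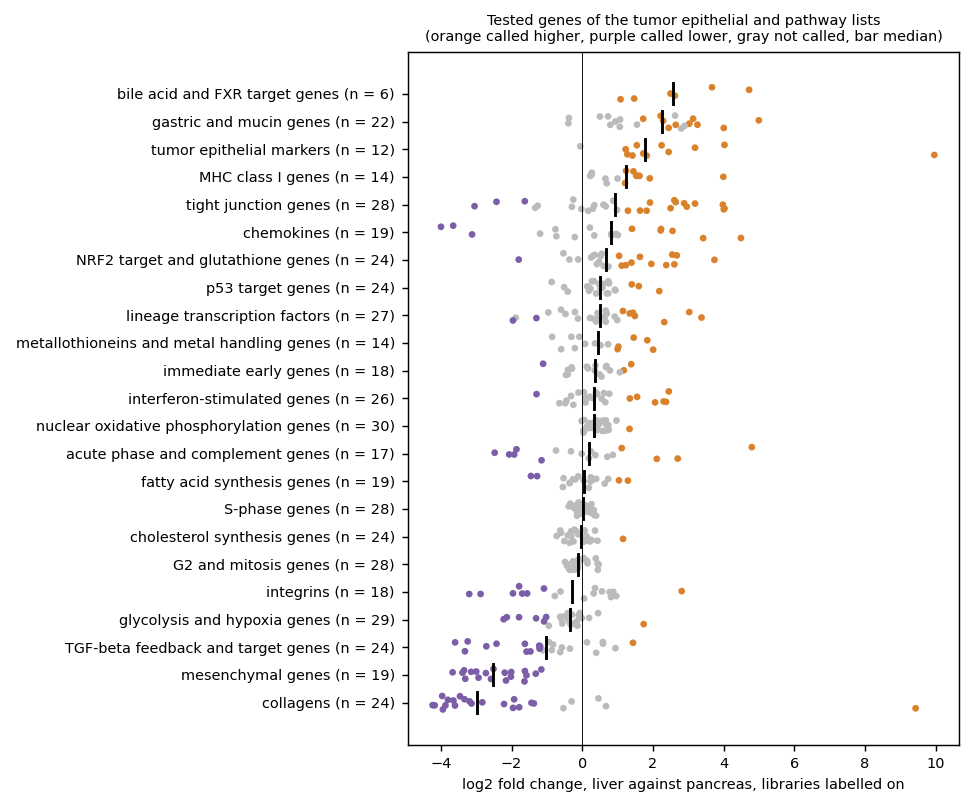
Log2 fold change, liver against pancreas, of every tested gene of the tumor epithelial list and the 22 pathway lists, with orange for genes called higher, purple for genes called lower, gray for genes not called and a bar at the median of each list. Collagens and mesenchymal genes lie at the low end, and the S-phase and the G2 and mitosis genes lie close to 0 with none called.

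Genes that handle bile acids, oxidants and metals were higher in liver in part. Of 15 bile acid and FXR (bile acid receptor) target genes 6 passed the filter, and 6 of these were called higher. Abcc3, an exporter of bile acids and conjugates at the basal membrane, rose from 26.8, 13.8, 25.9, 38.4 and 40.4 CPM to levels of 264 to 469 CPM, median 356 (log2 fold change 3.67 ± 0.30 (SE), adjusted p = 1.01e-05). Slc10a2, the ileal bile acid importer, rose from 2.54, 2.89, 0.982, 7.57 and 5.82 CPM to levels of 11 to 32 CPM, median 24.1 (log2 fold change 2.62 ± 0.47 (SE), adjusted p = 0.00108). Nr1h4, which encodes FXR, went from 3.34, 4.16, 10.7, 5.81 and 7.05 CPM to levels of 10.3 to 20 CPM, median 15.1 (log2 fold change 1.47 ± 0.28 (SE), adjusted p = 0.00149). Abcc4, another exporter, rose by 1.09 ± 0.11 on the log2 scale. Fgf15, the hormone that FXR induces in gut, went from 0.134, 0.231, 0, 0.0796 and 0.246 CPM to levels of 0.286 to 1.49 CPM, median 0.742. Abcc2, the canalicular exporter of hepatocytes, was at 0 to 0.14 CPM against 0.0358 to 4.94 CPM, median 0.745 and its call was lost without either day 7 primary tumor. A member that passed the filter only through the group where it is high had to differ, and 4 of the 15 were at 0 in all primary tumors.

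Of 24 NRF2 target and glutathione genes 11 rose and 1 fell (median 0.68), 50% in all beside 23.4% of all genes tested. Nqo1, a quinone reductase, rose from 0.401, 0.173, 1.47, 0.239 and 0.41 CPM to levels of 4 to 13.9 CPM, median 6.2 (log2 fold change 3.74 ± 0.57 (SE), adjusted p = 0.000375). Gsta4, a glutathione transferase, rose from 91.6, 89.5, 222, 195 and 192 CPM to levels of 677 to 1343 CPM, median 918 (log2 fold change 2.68 ± 0.30 (SE), adjusted p = 5.17e-05). The epithelial peroxidase Gpx2 rose from 19.3, 10.3, 37.2, 45.5 and 30.5 CPM to levels of 102 to 182 CPM, median 139 (log2 fold change 2.55 ± 0.24 (SE), adjusted p = 2.03e-05). The carbonyl reductase Cbr3 had a log2 fold change of 2.61 ± 0.29. Hmox1, heme oxygenase, was not called (-0.53), and the plasma peroxidase gene Gpx3 fell (-1.80 ± 0.34). Of 14 metal handling genes 5 rose and 0 fell (35.7% called, beside 23.4% of all genes tested). They were led by the iron exporter Slc40a1, from 24.1, 34.5, 43.4, 36.5 and 36.7 CPM to levels of 50.1 to 180.1 CPM, median 147 (log2 fold change 2.01 ± 0.30 (SE), adjusted p = 0.000357), and the copper pump Atp7b (1.84 ± 0.26). The zinc importer Slc39a4 (1.46 ± 0.18) and the transferrin receptor Tfrc (1.02 ± 0.17) followed, and Tfrc was under the 2-fold limit when 1 of 3 libraries was left out. Mt1 and Mt2, the metallothioneins, moved by 0.36 and -0.31 and were not called.

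Antigen presentation genes rose in part. Of 14 MHC class I genes 8 were called higher and 0 lower (median 1.23), 57.1% in all beside 23.4% of all genes tested. The classical heavy chain H2-K1 rose from 199.9, 266, 337, 281 and 293 CPM to levels of 647 to 1251 CPM, median 992 (log2 fold change 1.91 ± 0.17 (SE), adjusted p = 1.34e-05). H2-D1, the other, rose from 312, 378, 439, 449 and 460.3 CPM to levels of 983 to 1499 CPM, median 1161 (log2 fold change 1.62 ± 0.14 (SE), adjusted p = 1.27e-05). H2-Q7, a nonclassical heavy chain with near-identical copies that counting can split, rose from 0.268, 1.45, 0.281, 0.478 and 1.15 CPM to levels of 2.18 to 21.3 CPM, median 10.6 (log2 fold change 3.99 ± 0.65 (SE), adjusted p = 0.000563). Nlrc5, the transactivator of these genes, also rose (1.56 ± 0.37), whereas B2m, their light chain, was at 513 to 692 CPM against 317 to 986 CPM, median 653 and was not called (adjusted p = 0.457). Interferon-stimulated genes were mostly not called: 6 of 26 rose and 1 fell, 26.9% in all beside 23.4% of all genes tested. Those that rose were led by the 2-5A synthetase family (Oas2 2.45, Oas1a 2.37, Oasl1 2.30, Oas3 2.06). Ifit2 fell (-1.29), while Isg15 (-0.32) was not called.

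Chemokines moved in both directions. Of 19 tested 6 rose and 3 fell, 47.4% in all beside 23.4% of all genes tested. Ccl28, a mucosal chemokine, rose from 1.47, 0.578, 0.912, 2.15 and 1.31 CPM to levels of 8.88 to 43.9 CPM, median 27.6 (log2 fold change 4.49 ± 0.45 (SE), adjusted p = 2.91e-05). Ccl20 (3.42 ± 0.81), which attracts dendritic cells, and the neutrophil attractants Cxcl5 (2.56 ± 0.52), Cxcl2 (2.22) and Cxcl3 (2.23 ± 0.72) rose too, with Cxcl16 (1.41).  The call of Cxcl3 was lost when 1 of 6 libraries was left out, among them liver replicate 1 of day 14 (log2 fold change 1.02 without it), the library with the high neutrophil markers. Cxcl14 fell from 57.6, 44.7, 35.1, 25.5 and 33.8 CPM to levels of 0.943 to 3.54 CPM, median 2.51 (log2 fold change -4.00 ± 0.33 (SE), adjusted p = 1.05e-05), and Cxcl12, made by fibroblasts, fell by 3.12 on the log2 scale, as did Ccl7 by 3.65. Of 17 acute phase and complement genes 4 rose and 5 fell, 52.9% in all beside 23.4% of all genes tested. Orm1, an acute phase protein of hepatocytes, rose from 0, 0, 0.0701, 0.159 and 0.164 CPM to levels of 1.31 to 4.69 CPM, median 1.56 (log2 fold change 4.80 ± 0.75 (SE), adjusted p = 0.000419). Pglyrp1 (2.70 ± 0.35) and Cfb (2.11 ± 0.48) rose too, and Lcn2 (1.12 ± 0.41) was no longer called when 1 of 6 libraries was left out. Spp1, osteopontin, fell from 10238, 10563, 13042, 12051 and 10756 CPM to levels of 696 to 2752 CPM, median 2115 (log2 fold change -2.48 ± 0.27 (SE), adjusted p = 3.71e-05), with Saa3 (-2.07, not called without primary tumor replicate 2 of day 7), C1s1 (-1.92), Serping1 (-1.86) and Socs3 (-1.15).

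Cell cycle genes did not separate the organs at these thresholds. None of 28 S-phase and 28 G2 and mitosis genes was called, with log2 fold changes of -0.38 to 0.39 and -0.49 to 0.47. Mki67, the proliferation marker, was at 121, 174, 162, 137 and 160.2 CPM in the primary tumors and 70 to 216 CPM, median 143, in liver (adjusted p = 0.82). Of 29 glycolysis and hypoxia genes 1 rose and 6 fell, 24.1% in all beside 23.4% of all genes tested. The collagen prolyl hydroxylase P4ha1 fell from 332, 325, 299, 302 and 343 CPM to levels of 33.9 to 143 CPM, median 58.3 (log2 fold change -2.22 ± 0.28 (SE), adjusted p = 0.000112). The others included the mitophagy receptor Bnip3 (-2.13 ± 0.41), Ankrd37 (-1.79) and P4ha2 (-1.30), whereas the glycolytic enzyme Ldha (-0.41) and the glucose transporter Slc2a1 (-0.08) were not called and carbonic anhydrase Car12 rose (1.74 ± 0.50). Of 24 cholesterol synthesis genes 1 was called (4.17%, beside 23.4% of all genes tested). It was Idi1 (higher, 1.16 ± 0.36). Its call was lost without liver replicate 3 of either day (the 2 with mt-Co3 counts) or primary tumor replicate 1 of day 7. Of 19 fatty acid synthesis genes 2 rose (Elovl7 1.29, Acsl1 1.04) and 2 fell, 21.1% in all beside 23.4% of all genes tested. Those that fell were the desaturases Scd1, from 135, 151, 153, 94.1 and 129 CPM to levels of 32 to 77.9 CPM, median 43.3 (log2 fold change -1.45 ± 0.21 (SE), adjusted p = 0.000227), and Scd2 (-1.27). Among 24 p53 target genes 3 rose (12.5%, beside 11.1% of all genes tested), the desmosome gene Perp from 57.7, 44.1, 73.4, 74.3 and 71.3 CPM to levels of 204 to 399 CPM, median 284 (log2 fold change 2.18 ± 0.21 (SE), adjusted p = 2.12e-05), the stress cytokine gene Gdf15 and Pmaip1 (1.40), which encodes the cell death protein NOXA. Of 18 immediate early genes 2 rose (Fosl1 1.39, Atf3 1.18) and 1 fell (Egr2 -1.11), 16.7% in all beside 23.4% of all genes tested. Of 30 nuclear oxidative phosphorylation genes 1 was called (3.33%, beside 23.4% of all genes tested). It was Cox7c, which rose (1.34 ± 0.36) and was under 2-fold without liver replicate 3 of day 14 (0.89). The calls of Acsl1, Fosl1 and Egr2 were likewise lost when 1 of 2, 3 and 3 libraries was left out.

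The day given in the label was asked next, by the interaction of organ and day. No gene (0%) of 16092 was called in edgeR, where 1357 had an unadjusted p under 0.05 and DESeq2 called 91. On day 7 alone 1781 genes were called higher and 1897 lower in liver, and on day 14 alone 900 and 1016. Of the 1792 genes called higher on both days together, 81% were called on day 7 alone and 49.5% on day 14 alone, and of those lower 79.8% and 50.1%. Day 7 had 2 primary tumors and 3 livers and day 14 had 3 of each, and the difference between the counts was not itself tested. Among the named genes, Postn, Prrx1, Col11a1, Cxcl12, Slc10a2 and Ccl20 were not called on day 14 alone, with the same direction. As no gene was called in edgeR, every list held 0 by necessity, which says nothing about single lists.

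The same comparison in libraries labelled Smad4 off (5 livers and 5 primary tumors) shares no library with the one labelled on. In 1 fit of all 21 libraries, 915 of 17742 genes (5.16%) were called higher and 667 (3.76%) lower in liver with the label off, or 1192 and 1388 without the paired-end liver library. Of the genes called higher with the label on, 741 (41.4%) were also called higher with the label off, and of those called lower 470 (23.8%) were also called lower. Without the paired-end library these were 930 (51.9%) and 1022 (51.9%). For single genes the values stood side by side: with the label off, and without the paired-end library, Epcam ran from 85.8 to 141 CPM in pancreas and 284 to 601 in liver, Foxa1 from 1.83 to 4.04 and 7.3 to 29.5, and vimentin from 5007 to 6045 and 2990.0 to 8148. With all libraries labelled off, 3 of 19 mesenchymal genes and 4 of 24 collagens were called lower in liver and 9 of 12 tumor epithelial markers higher, and without the paired-end library 12, 17 and 11 were.

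The difference between the labels was then tested directly. It was called for 190 genes (1.07%) in edgeR, 40 with a more positive and 150 with a more negative liver against pancreas difference when labelled on. The unadjusted p was under 0.05 for 2887 genes, and DESeq2 called 668. The count hung on single libraries. It was 56 without the paired-end library (liver replicate 2 of day 7, labelled off), 43 of these among the 190. Among the other libraries labelled off, it was 1 without replicate 1 or 2 of the day 14 primary tumors, 52, 93 and 61 without replicates 1, 2 and 3 of the day 7 primary tumors, 1238 without liver replicate 1 of day 7 and 461 without liver replicate 3 of day 14. Among those labelled on, it was 50 and 10 without primary tumor replicates 1 and 2 of day 7, 89, 64 and 54 without replicates 1 to 3 of day 14, 109, 55 and 113 without liver replicates 1 to 3 of day 7 and 92 without liver replicate 1 of day 14. The other 4 libraries moved it by less than 1.5 times. By lowest p, Edn1, the vasoconstrictor endothelin-1, led the positive genes. It ran from 8.22 to 53.9 CPM in liver and 2.95 to 5.65 in pancreas with the label on, and 2.07 to 11.2 and 5.74 to 20.2 with it off (difference 3.63 ± 0.54 (SE), adjusted p = 0.0129). Its log2 fold change was 2.74 with the label on and -0.89 with it off. Rnf130 followed with 2.33 with the label on and 0.39 with it off (1.94 ± 0.31 (SE), adjusted p = 0.016), then Mcf2l, a guanine nucleotide exchange factor (2.16 with the label on and 0.31 with it off), and Nedd4l, a ubiquitin ligase of ion channels and of SMAD proteins (1.03 with the label on and -0.18 with it off). Among the negative genes Snn (-1.91 with the label on and -0.53 with it off, difference -1.39 ± 0.16 (SE), adjusted p = 0.00243) and Aox1 (-2.12 with the label on and -0.39 with it off, difference -1.73 ± 0.22 (SE), adjusted p = 0.006) came first, with Dpy19l1 and St6galnac6 next at differences of -1.45 and -1.50. All 8 had an adjusted p between 0.00719 and 0.0313 without the paired-end library, but at least 7 of the 8 were not called without replicate 1 or without replicate 2 of the day 14 primary tumors labelled off, where 1 gene in all was called. Among the lists, with all libraries in, 4 TGF-beta genes and 3 mesenchymal genes were among those called, and 0 tumor epithelial markers. These list counts were not taken without the paired-end library. Has2, chosen after its values were seen, was at 0.358 to 2.83 CPM in liver with the label on and 10 to 29.2 with it off and the paired-end library left out.

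**Figure D5:**
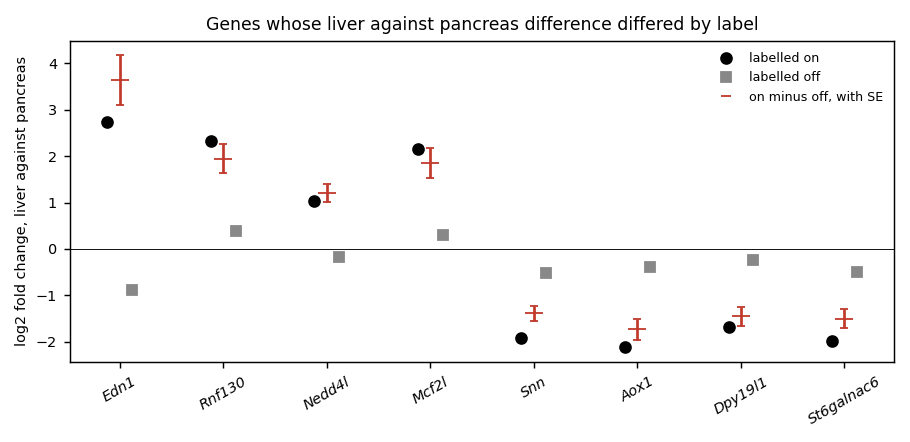
Log2 fold change of liver against pancreas with the label on (black circles) and off (gray squares) in 1 fit of 21 libraries, and the difference on minus off (red bar with its SE), for the 8 genes named by lowest p. The label-on values of these genes lie farther from 0 than the label-off values.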

How the data were processed

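RNA of sorted mKate2-positive cells was sequenced in 35 stranded poly(A) libraries, as 75-base reads, and the 11 libraries labelled Smad4 on from liver and pancreas were compared. The labels number the libraries of a group without saying that each is a separate animal, so p-values measure the spread between these libraries. The authors deposited raw counts per gene, which per the labels and methods were made with FastQC 0.11.5, Trimmomatic 0.36, STAR 2.5.3a and featureCounts 1.6.3 on GRCm38 (Ensembl release 91). The strand setting of the counting is not given in the sources used here, so overlapping and antisense genes may share reads. Gene coordinates and transcript lengths in the deposited table (unit other) were used for positions only.

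Genes that passed filterByExpr were tested with edgeR 4.0.16 (quasi-likelihood, TMM, organ plus day) in R 4.3.3. Calls needed a change of more than 2-fold together with an adjusted p under 0.05 (Benjamini-Hochberg, over all genes tested). CPM used the total count, log2 values log2(CPM + 0.5), and marker sums were compared by two-sided exact permutation tests over libraries. Organ by day was tested in the same 11 libraries and organ by label in 21. Scripts were tested on simulated data. DESeq2 1.42.0, other filters and scalings, single days and left-out libraries were tried.

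The comparison, the gene lists and the rule for naming genes were chosen with earlier results of these data known. The rule took 12 called genes per direction by lowest p (no overlap, a mean of at least 10 CPM in the higher group, on no host list, not following the hepatocyte or acinar sum at r of at least 0.9), up to 4 called genes per direction and list by size, 16 fixed genes (Smad4, Alb, Epcam, Krt19 and lineage factors), and 4 genes per direction for each interaction. Other genes named were picked after their values were seen. Results on a few genes that the lists or the rule hold are not reported here.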

Additional observations from a re-analysis of the deposited data

Results flagged for a closer look

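Lymphocyte and neutrophil markers summed to 229.5 CPM in liver replicate 1 of day 14, labelled Smad4 on, against 8.84 to 33.4 CPM in the other 5 livers of that label, a gap that set it apart from the rest of its group. Epcam was at 521 CPM in liver replicate 2 of day 14, below the 758 to 850.4 CPM of the other 5. These were 2 of 34 groups of values checked in this way, and chance sets apart about 1 in 20.

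With all 21 libraries, the liver against pancreas difference was called as different between the labels for 190 genes (edgeR's quasi-likelihood test, adjusted over all genes tested), 8 of which are named by lowest p. The calls hung on single libraries, with 1 gene called without replicate 1 or without replicate 2 of the day 14 primary tumors labelled off. On the log2 scale, labelled on minus labelled off, it was 3.63 for Edn1, 1.94 for Rnf130, 1.21 for Nedd4l and 1.85 for Mcf2l, and -1.39 for Snn, -1.73 for Aox1, -1.45 for Dpy19l1 and -1.50 for St6galnac6. Edn1 was higher in liver than in pancreas with the label on (2.74) and lower with it off (-0.89).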

How the results depend on the processing

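Liver against pancreas, 1580 to 2090 genes were called higher and 1710 to 2168 lower under DESeq2, its size factors, both other filters, no day covariate, day 7 alone, the replicate block and 1 fit of 35 libraries. Fewer were called on day 14 alone (900 and 1016) and more with no fold threshold (3595 and 3615). Leaving out 1 library gave 1586 to 1951 and 1757 to 2055. Organ by day rose from 0 to 91 genes in DESeq2, and organ by label from 190 to 668. Organ by label fell to 56 without the paired-end library and to 0 with the replicate block, and ran from 1 to 1238 when 1 library was left out. The cause was not tested.

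With the replicate block (the number of the library within day) the main counts were 1580 and 1840, and organ by day stayed at 0. The numbers did not pair the libraries: correlations of deviations between same-numbered libraries were 0.0093 and 0.0423 on day 7 and -0.0168, -0.0693 and 0.0722 on day 14. Of the named genes 9 lost their call with the block, 17 on day 7 alone, 31 on day 14 alone, 4 in DESeq2 and 1 to 8 when a library was left out. No named gene changed direction under any of these settings. The difference in hepatocyte markers was 1.39 as a mean of log2 values, against 2.39. The shallowest library held 12200163 counts, where levels under 0.246 CPM rest on fewer than 3 counts, and day 7 had 2 primary tumors.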
